A study of Saccharomyces cerevisiae with 12 samples.

Results

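Small subunit processome genes were followed in 12 RNA sequencing libraries of the yeast Saccharomyces cerevisiae. The set held 37 genes, picked by locus tag from 7126 features in each library, and all 37 were found and passed the filter on low values. They were numbered UTP genes other than UTP25, together with PWP2, NAN1, DIP2, IMP3, IMP4, MPP10, NOP14, EMG1 and ENP1. The others were KRR1, RRP5, RRP9, NSR1, BMS1, RCL1, SOF1, ROK1, DBP4 (HCA4 in the annotation), DHR2 and KRE33. Each of 4 genotype groups had 3 biological replicates. All strains were MATα W303, grown in SC medium at 24 °C to mid-log phase. Strains labelled epl1∆ sds3∆ carried epl1∆::kanMX and sds3∆::natMX, those labelled esa1∆ sds3∆ carried esa1∆::HIS3 and sds3∆::natMX, and those labelled esa1∆ epl1∆ sds3∆ carried all 3 of these alleles. The label of WT lists ura3-1, trp1-1, his3-11, can1-100, ade2-1 and a leu2 allele with the mutations 3 and 112. EPL1 and ESA1 encode the subunits around which the piccolo form of the NuA4 histone acetyltransferase is built, and SDS3 a component of Rpd3L, a histone deacetylase complex. The comparison with WT asked what differs in strains that lack Epl1, Esa1 or both. No group labelled sds3∆ alone was analysed here, so the part of a difference that goes with each deletion cannot be told apart.

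The processome is the large particle that forms on the nascent ribosomal RNA precursor in the nucleolus. It joins the U3 small nucleolar RNA to many proteins, folds the precursor and directs the cuts that release the RNA of the small ribosomal subunit. Its proteins arrive as subcomplexes, named UtpA, UtpB, UtpC and the Mpp10 complex, and as lone enzymes and assembly factors. In yeast their genes belong to the ribosome biogenesis regulon, which is known to follow growth conditions as a group. Many promoters of that regulon carry a PAC motif, bound by the repressors Dot6 and Tod6, and an RRPE motif, bound by Stb3, and these repressors are known to act with Rpd3L.

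The reads behind the deposited values numbered 8089179 to 14527280 per library in the groups with mutant labels and 13071781 to 14390732 in WT. Small nucleolar RNAs took 25.6% to 27.8% of the reads in the libraries with mutant labels and 15.9% to 16.8% in WT, and protein-coding genes took 53.2% to 56.7% in the libraries with mutant labels and 64.6% to 65.5% in WT. Levels are therefore given as scaled RPKM, that is RPKM divided by a median-of-ratios factor per library. The libraries measure each RNA relative to the others, and fewer cells and less RNA per cell cannot be told apart. ESA1 had 1 to 3 reads in the libraries labelled esa1∆ and 181 to 310 in WT. EPL1 had 4 to 13 reads in the libraries labelled epl1∆ and 73 to 142 in WT. SDS3 kept 36 to 77 reads in the 9 libraries labelled sds3∆, against 112 to 158 in WT, at the depths given above. These reads do not bear out a complete loss of SDS3, and what the allele removes could not be settled from them. The text therefore calls each group by its label only.

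Processome mRNAs rose together in all 3 groups with mutant labels. Of the 37 genes, 36 rose and 0 fell in the libraries labelled epl1∆ sds3∆, against 30.1% and 30.0% of the 5956 features tested. In those labelled esa1∆ sds3∆, 35 rose and 0 fell, against 30.0% and 29.7% of features. In those labelled esa1∆ epl1∆ sds3∆, 35 rose and 0 fell, against 30.1% and 29.3%. A gene was said to rise or fall at a Benjamini-Hochberg adjusted p under 0.05 over all features in limma. The median log2 fold changes of the 37 genes were 1.01, 1.01 and 1.04, beside -0.0063, -0.0064 and 0.0032 for all features tested. Fold changes are differences of log2(scaled RPKM + 1), which understates the change of low genes. The median over the genes of the 95% interval's half-width was 0.36. The genes took 0.365% ± 0.0456, 0.329% ± 0.0314 and 0.358% ± 0.0254 of the protein-coding reads in the groups labelled epl1∆ sds3∆, esa1∆ sds3∆ and esa1∆ epl1∆ sds3∆, against 0.179% ± 0.0444 in WT (SD, n = 3 each). All 9 libraries with mutant labels lay above all 3 WT libraries for 35 genes, a pattern seen in 25.1% of features tested. UTP22 and UTP23 were the exceptions. All 3 log2 fold changes were at least 1 for 17 of the genes and at least 0.5 for 35.

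**Figure D1:**
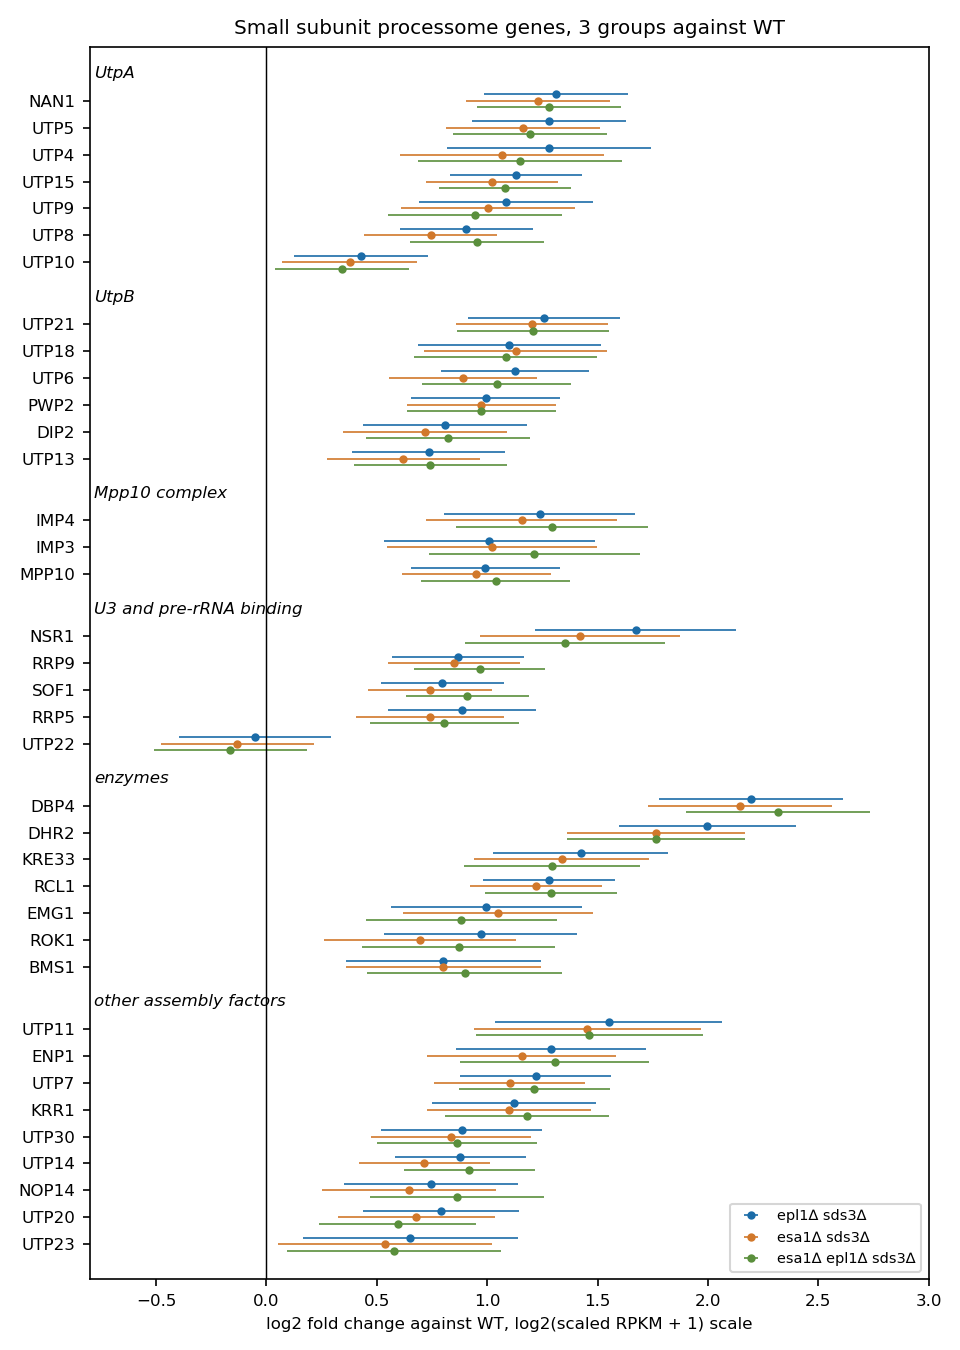
Log2 fold change against WT (x axis, with 95% intervals from limma) of each of the 37 genes (rows, by role), in the groups labelled epl1∆ sds3∆ (blue), esa1∆ sds3∆ (orange) and esa1∆ epl1∆ sds3∆ (green), 3 libraries each. Most genes sit near 1, DBP4 and DHR2 lie farthest to the right, and the intervals of UTP22 include 0.

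The promoters of the genes shared 2 short sequences known from the ribosome biogenesis regulon, to which these genes belong. A high share was therefore foreseen and is no independent result. In the 200 bases from 250 to 51 before the start codon, 32 of 37 promoters (86.5%) held the PAC core GATGAG on either strand, compared with 939 of 6001 promoters (15.6%) of nuclear protein-coding genes. The RRPE core AAAAATTT was present on either strand in 29 (78.4%), compared with 742 (12.4%) of all promoters. Both cores were present in 27 (73.0%), compared with 284 (4.73%). The closest pair of cores was 9 to 43 bases apart, measured between first bases, with a median of 17, and in 23 of these 27 promoters the RRPE core was the one farther from the start codon. The windows of 6 genes overlap a neighbouring gene. UTP22, UTP4 and EMG1 held neither core.

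The windows of 6 genes are printed to show the promoters behind the largest and the smallest fold changes. They come from the RefSeq sequence of the R64 assembly, which is the same assembly as sacCer3, and run 5′ to 3′ on the strand of the gene, with PAC and RRPE cores in capitals. DBP4 (YJL033W, chrX:383587-383786, plus strand) and DHR2 (YKL078W, chrXI:288595-288794, plus strand) had the largest fold changes with the pseudocount of 1. NSR1 (YGR159C, chrVII:807707-807906, minus strand) had the highest level. UTP10 (YJL109C, chrX:217360-217559, minus strand) and UTP22 (YGR090W, chrVII:662108-662307, plus strand) had the smallest fold changes. UTP4 (YDR324C, chrIV:1116814-1117013, minus strand) rose, and its window held neither core.
DBP4: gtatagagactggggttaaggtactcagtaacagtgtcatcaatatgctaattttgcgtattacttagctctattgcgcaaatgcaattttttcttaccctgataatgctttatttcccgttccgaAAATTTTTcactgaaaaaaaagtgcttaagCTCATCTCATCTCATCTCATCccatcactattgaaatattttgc
DHR2: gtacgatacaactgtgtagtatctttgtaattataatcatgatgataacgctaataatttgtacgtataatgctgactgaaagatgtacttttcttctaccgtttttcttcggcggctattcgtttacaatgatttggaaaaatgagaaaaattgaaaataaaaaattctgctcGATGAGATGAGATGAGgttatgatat
NSR1: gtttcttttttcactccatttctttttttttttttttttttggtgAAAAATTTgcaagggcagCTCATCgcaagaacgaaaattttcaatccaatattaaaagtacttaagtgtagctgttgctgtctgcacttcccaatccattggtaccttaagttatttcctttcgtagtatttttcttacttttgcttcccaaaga
UTP10: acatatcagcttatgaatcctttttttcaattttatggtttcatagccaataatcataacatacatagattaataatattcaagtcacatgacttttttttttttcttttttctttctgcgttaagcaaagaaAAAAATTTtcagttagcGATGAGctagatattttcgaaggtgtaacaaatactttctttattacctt
UTP22: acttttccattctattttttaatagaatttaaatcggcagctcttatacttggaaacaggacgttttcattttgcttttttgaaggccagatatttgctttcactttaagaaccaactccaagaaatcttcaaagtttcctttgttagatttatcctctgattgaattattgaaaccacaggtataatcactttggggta
UTP4: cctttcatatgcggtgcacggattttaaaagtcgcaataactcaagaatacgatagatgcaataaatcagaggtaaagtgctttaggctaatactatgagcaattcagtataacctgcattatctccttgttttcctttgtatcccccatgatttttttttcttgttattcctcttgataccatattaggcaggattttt

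The number of PAC cores differed between the genes. DBP4 held 4, at 94, 89, 84 and 79 bases before the start codon, in a tandem run in which neighbours share 1 base. DHR2 held 3 in a similar run, at 76, 71 and 66 bases, and UTP8 held 3 at 229, 95 and 90 bases. Averaged over the 3 comparisons, the median log2 fold change was 1.84 for these 3 genes (0.87 to 2.22), 1.17 for the 10 genes with 2 cores (0.70 to 1.49), 0.98 for the 19 with 1 (0.38 to 1.48) and 0.98 for the 5 with none (-0.12 to 1.16). The value of 1.84 is that of DHR2, whose fold changes were 1.20, 1.02 and 1.03 with a pseudocount of 5. The ranges of genes with different numbers of cores overlapped. Runs of 2 PAC cores that share 1 base were also found in RRP5, UTP8, UTP18, RCL1, NAN1 and KRE33. Their log2 fold changes, averaged likewise, were 0.81, 0.87, 1.10, 1.26, 1.27 and 1.35. UTP10 carried both cores and had the smallest fold change of the genes that did. A match to these letters is a description of the sequence and was not tested as a binding site.

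**Figure D2:**
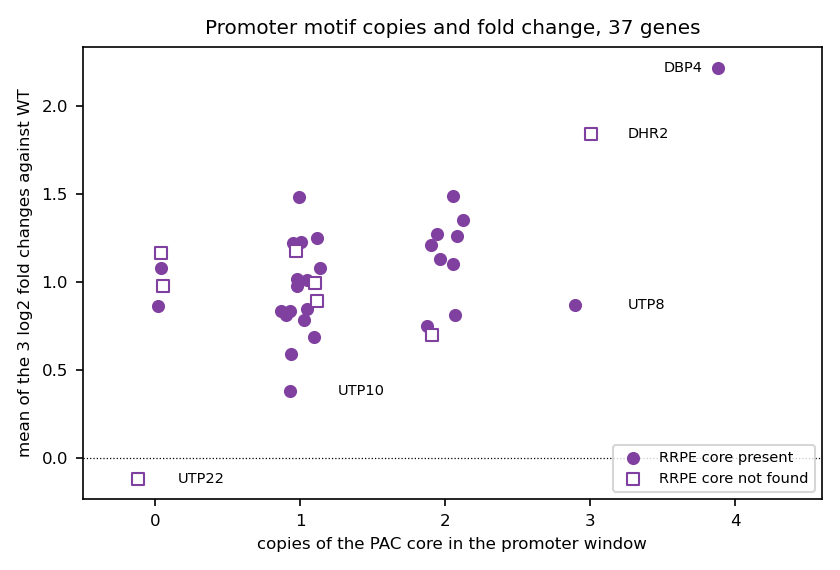
Mean of the 3 log2 fold changes against WT (y axis) by the number of PAC cores in the promoter window (x axis, points moved sideways a little so that they can be told apart), 1 point per gene. Filled circles have an RRPE core and open squares have none. DBP4 and DHR2 lie at the top with 4 and 3 PAC cores, and UTP22 lies at the bottom with none.

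UtpA binds the start of the precursor first and comprises UTP4, UTP5, UTP8, UTP9, UTP10, UTP15 and NAN1. All 7 genes rose in the libraries labelled epl1∆ sds3∆ and esa1∆ sds3∆, and 6 of 7 did in those labelled esa1∆ epl1∆ sds3∆, with medians of 1.13, 1.02 and 1.08. NAN1, a subunit made of WD repeats (YPL126W, chrXVI:310210-312900, plus strand), had the largest fold changes of the 7. NAN1 had 32.4, 33.2 and 26.1 scaled RPKM in the libraries labelled epl1∆ sds3∆, 29.3, 29.9 and 27.0 in those labelled esa1∆ sds3∆ and 29.6, 29.8 and 29.8 in those labelled esa1∆ epl1∆ sds3∆, against 14.2, 13.1 and 8.48 in WT. The 9 libraries with mutant labels lay in a narrow band above WT, with log2 fold changes of 1.31, 1.23 and 1.28 (SE 0.151 each, limma adjusted p 1.19e-05, 1.98e-05 and 1.30e-05). UTP10, a long protein of helical repeats (YJL109C, chrX:212000-217309, minus strand), had the smallest. UTP10 had 36.3, 32.8 and 30.3 scaled RPKM in the libraries labelled epl1∆ sds3∆, 33.1, 32.3 and 30.3 in those labelled esa1∆ sds3∆ and 31.2, 31.7 and 30.4 in those labelled esa1∆ epl1∆ sds3∆, against 26.5, 29.6 and 18.3 in WT. The groups did not overlap, but the gap to the highest WT library was small, with log2 fold changes of 0.43, 0.38 and 0.34 (SE 0.141 each, limma adjusted p 0.0187, 0.0340 and 0.0512). The first call ended with RPKM as deposited (0.18, adjusted p 0.276) and without WT replicate 3 (0.23, adjusted p 0.0581), among other settings. So did the second (0.13, adjusted p 0.426, and 0.18, adjusted p 0.131). Without WT replicate 3 the last was 0.15, adjusted p 0.215. Over the alternatives the adjusted p of UTP10 lay between 0.00422 and 0.276, 0.00729 and 0.426, and 0.0106 and 0.383 in the 3 comparisons. In WT, UTP10 was also the most abundant UtpA mRNA per length, at 24.8 ± 5.85 scaled RPKM, while the other 6 averaged between 7.41 and 11.9 (SD, n = 3). In the group labelled epl1∆ sds3∆ the 7 mRNAs ranged from 17.2 to 33.1.

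UtpB is a second early subcomplex, built mostly of WD-repeat proteins, with PWP2, DIP2, UTP13, UTP18 and UTP21, and UTP6. All 6 genes rose in each comparison, with medians of 1.05, 0.93 and 1.01. UTP21 (YLR409C, chrXII:934414-937233, minus strand) had the largest fold changes. UTP21 had 28.6, 27.9 and 25.1 scaled RPKM in the libraries labelled epl1∆ sds3∆, 24.8, 29.3 and 24.4 in those labelled esa1∆ sds3∆ and 26.4, 27.0 and 25.2 in those labelled esa1∆ epl1∆ sds3∆, against 12.5, 13.1 and 7.51 in WT. The libraries with mutant labels all lay well above WT, with log2 fold changes of 1.26, 1.20 and 1.21 (SE 0.159 each, limma adjusted p 2.45e-05, 3.57e-05 and 3.22e-05). UTP13 (YLR222C, chrXII:579318-581771, minus strand) had the smallest. UTP13 had 22.1, 21.4 and 20.6 scaled RPKM in the libraries labelled epl1∆ sds3∆, 18.7, 20.8 and 19.3 in those labelled esa1∆ sds3∆ and 22.5, 21.4 and 20.5 in those labelled esa1∆ epl1∆ sds3∆, against 15.3, 14.7 and 8.49 in WT. The groups still did not overlap, with log2 fold changes of 0.74, 0.62 and 0.74 (SE 0.160 each, limma adjusted p 0.00161, 0.00498 and 0.00149). The second of these calls ended with RPKM as deposited, and its adjusted p lay between 0.00176 and 0.0542 over the alternatives. Without WT replicate 3 the log2 fold changes of UTP13 were 0.49, 0.37 and 0.49. WT levels of UtpB mRNAs ran from 4.98 ± 1.29 scaled RPKM for UTP18 to 13.5 ± 3.88 for PWP2 (SD, n = 3).

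The Mpp10 complex brings U3 and the precursor together, with MPP10 as the scaffold for IMP3 and IMP4. All 3 genes rose in every comparison with WT, with medians of 1.01, 1.02 and 1.21. IMP4 had 22.8, 23.2 and 25.4 scaled RPKM in the libraries labelled epl1∆ sds3∆, 22.6, 24.1 and 20.6 in those labelled esa1∆ sds3∆ and 25.7, 25.6 and 23.0 in those labelled esa1∆ epl1∆ sds3∆, against 13.6, 10.5 and 5.87 in WT. No library with a mutant label came near the WT range, and IMP4 (YNL075W, chrXIV:485607-486479, plus strand) had log2 fold changes of 1.24, 1.16 and 1.29 (SE 0.200 each, limma adjusted p 0.000177, 0.000300 and 0.000119). MPP10 had 20.6, 18.1 and 15.7 scaled RPKM in the libraries labelled epl1∆ sds3∆, 17.7, 18.2 and 16.7 in those labelled esa1∆ sds3∆ and 20.4, 18.8 and 16.9 in those labelled esa1∆ epl1∆ sds3∆, against 11.0, 9.01 and 6.27 in WT. MPP10 (YJR002W, chrX:438865-440646, plus strand) also stood apart from WT in all 9 libraries, with log2 fold changes of 0.99, 0.95 and 1.04 (SE 0.156 each, limma adjusted p 0.000145, 0.000202 and 9.60e-05). The WT means of the 3 mRNAs were close, at 8.76 ± 2.37 for MPP10, 8.81 ± 4.03 for IMP3 and 10.01 ± 3.91 scaled RPKM for IMP4 (SD, n = 3).

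Among proteins that bind U3 or the precursor, 4 of 5 genes rose and 0 fell in each comparison, with medians of 0.87, 0.74 and 0.91. The 4 were RRP9, a protein of the U3 particle, RRP5, a large RNA-binding protein used in making both subunits, SOF1 and NSR1, and the fifth gene was UTP22. NSR1 (YGR159C, chrVII:806412-807656, minus strand), the yeast relative of nucleolin, was the most abundant mRNA of the whole set per length. NSR1 had 332, 269 and 224 scaled RPKM in the libraries labelled epl1∆ sds3∆, 228, 258 and 201 in those labelled esa1∆ sds3∆ and 206, 242 and 204 in those labelled esa1∆ epl1∆ sds3∆, against 115, 89.6 and 58.4 in WT. Its lowest library with a mutant label was well above its highest WT library, with log2 fold changes of 1.67, 1.42 and 1.35 (SE 0.210 each, limma adjusted p 2.36e-05, 8.90e-05 and 0.000123). The next most abundant WT mRNA, that of EMG1, averaged 25.9 ± 8.47 scaled RPKM, against 87.6 ± 28.3 for NSR1 (SD, n = 3). RRP5, RRP9 and SOF1 had log2 fold changes between 0.74 and 0.97. Both genes of the U3 RNA itself rose as well, where 30.1%, 30.0% and 30.1% of all features tested did. Small nucleolar RNAs as a class also took more of the reads, 25.6% to 27.8% against 15.9% to 16.8% in WT. Whether U3 differs from that class was not tested. SNR17A had log2 fold changes of 1.24, 1.28 and 1.29 (limma adjusted p 7.88e-07, 6.27e-07 and 5.64e-07), and SNR17B had 0.80, 0.80 and 0.78 (2.96e-05, 2.73e-05 and 3.47e-05). These 2 genes are near-identical copies, so the division of reads between them is uncertain.

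UTP22 was the only one of the 37 genes that was called in none of the 3 comparisons with WT. It encodes a subunit of UtpC (YGR090W, chrVII:662358-666071, plus strand). UTP22 had 23.3, 21.2 and 17.1 scaled RPKM in the libraries labelled epl1∆ sds3∆, 20.5, 20.7 and 16.7 in those labelled esa1∆ sds3∆ and 20.3, 18.6 and 17.5 in those labelled esa1∆ epl1∆ sds3∆, against 19.3, 27.8 and 17.5 in WT. The groups overlapped, and WT replicate 2 was the highest of the 12 libraries. The log2 fold changes were -0.05, -0.13 and -0.16 (limma adjusted p 0.794, 0.494 and 0.396), with 95% intervals of -0.40 to 0.29, -0.48 to 0.21 and -0.51 to 0.18. The upper bounds lie below the median fold changes of the 37 genes. Without WT replicate 3 the log2 fold changes were -0.18, -0.26 and -0.29. Over the alternatives the adjusted p lay between 0.112 and 0.870, 0.0506 and 0.875, and 0.0614 and 0.877. Without WT replicate 2 the log2 fold changes were 0.14, 0.058 and 0.027.

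RRP7 and the 4 casein kinase 2 genes, which are UtpC genes but no members of the set, had fold changes near or below 0. RRP36, another UtpC gene outside the set, went the other way, with a mean log2 fold change of 0.69 over the 3 comparisons. RRP7, whose protein pairs with Utp22, had log2 fold changes of 0.21, 0.12 and 0.21 and was not called (adjusted p 0.215, 0.486 and 0.203). It averaged 21.9 ± 3.56, 20.5 ± 2.31 and 21.9 ± 1.38 scaled RPKM in the groups labelled epl1∆ sds3∆, esa1∆ sds3∆ and esa1∆ epl1∆ sds3∆, against 18.9 ± 3.36 in WT (SD, n = 3 each). Casein kinase 2, a protein kinase with many substrates, joins the same subcomplex, and of its 4 genes 0 rose, while 1, 2 and 1 fell. Over all features tested 30.1%, 30.0% and 30.1% rose and 30.0%, 29.7% and 29.3% fell, so counts this small among 4 genes are near the shares of all features. CKB1 fell by 0.55, 0.54 and 0.58 on the log2 scale (adjusted p 0.000562, 0.000584 and 0.000370), and CKB2 fell by 0.34 in the libraries labelled esa1∆ sds3∆ (adjusted p 0.0126). CKA1 and CKA2, the catalytic subunits, were not called, with log2 fold changes of -0.18, -0.17 and -0.04 and of -0.18, -0.28 and -0.19. The PAC core was found in none of the promoters of RRP7 and the 4 kinase genes, and the RRPE core was found in those of RRP7 and CKA2. The promoter of RRP36 held 1 PAC core and no RRPE core. RRP7, RRP36 and the kinase genes were set beside UTP22 after their values were seen.

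**Figure D3:**
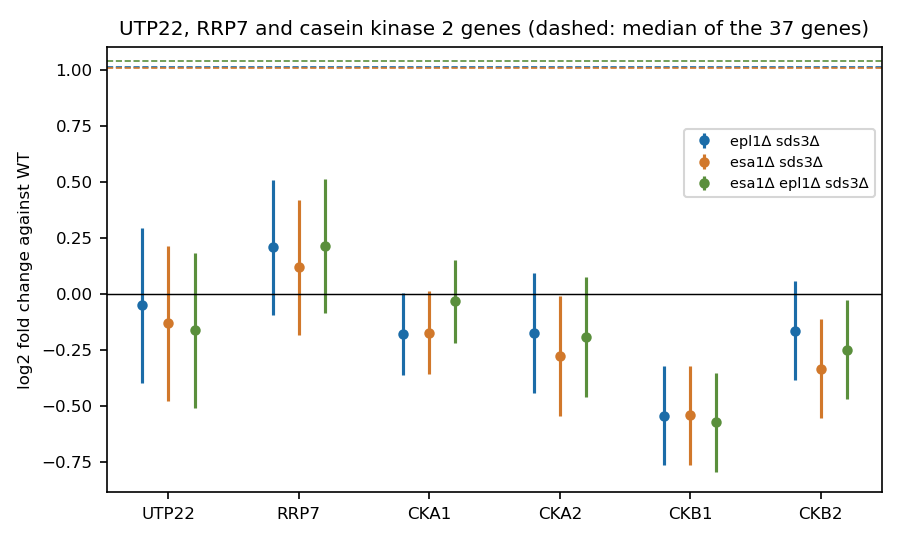
Log2 fold change against WT (y axis, with 95% intervals from limma) of UTP22, RRP7 and the 4 casein kinase 2 genes, in the groups labelled epl1∆ sds3∆ (blue), esa1∆ sds3∆ (orange) and esa1∆ epl1∆ sds3∆ (green). Dashed lines mark the median of the 37 processome genes in the same 3 comparisons, at 1.01, 1.01 and 1.04, above every interval shown. RRP36, a UtpC gene with higher fold changes, is not shown.

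All 7 enzyme genes rose in every comparison, with medians of 1.28, 1.22 and 1.29. DBP4 (YJL033W, chrX:383837-386149, plus strand), a DEAD-box RNA helicase that acts on the U14 small nucleolar RNA, had the largest of all 37 with the pseudocount of 1. DBP4 had 22.9, 23.8 and 19.7 scaled RPKM in the libraries labelled epl1∆ sds3∆, 24.6, 20.1 and 19.6 in those labelled esa1∆ sds3∆ and 24.2, 24.2 and 24.1 in those labelled esa1∆ epl1∆ sds3∆, against 6.32, 3.84 and 2.62 in WT. Every library with a mutant label was at least 19.6 scaled RPKM, while no WT library was above 6.32, with log2 fold changes of 2.19, 2.15 and 2.32 (SE 0.193 each, limma adjusted p 1.29e-06, 1.71e-06 and 8.05e-07). The ratios of the group means were 5.20, 5.03 and 5.66. DHR2 (YKL078W, chrXI:288845-291052, plus strand), a DEAH-box RNA helicase, had the lowest WT level of the set and, with the pseudocount of 1, the next largest fold changes. DHR2 had 12.7, 11.6 and 10.2 scaled RPKM in the libraries labelled epl1∆ sds3∆, 9.83, 10.2 and 8.81 in those labelled esa1∆ sds3∆ and 11.0, 9.90 and 8.03 in those labelled esa1∆ epl1∆ sds3∆, against 2.84, 2.61 and 1.19 in WT. These values correspond to ratios of group means of 5.20, 4.35 and 4.37, and to log2 fold changes of 1.998, 1.76 and 1.76 (SE 0.186 each, limma adjusted p 2.12e-06, 5.95e-06 and 5.27e-06). With a pseudocount of 5, which weighs on low genes, DHR2 had 1.20, 1.02 and 1.03 and DBP4 1.57, 1.53 and 1.67, while NSR1 had 1.62, 1.38 and 1.31. On that scale NSR1 passed DHR2 in all 3 comparisons and DBP4 in the libraries labelled epl1∆ sds3∆. The promoters of DBP4 and DHR2, printed above, held tandem PAC cores, as did those of RRP5, UTP8, UTP18, RCL1, NAN1 and KRE33. BMS1 (YPL217C, chrXVI:139620-143171, minus strand), a GTPase, had the smallest mean fold change of the enzymes. BMS1 had 7.39, 6.65 and 5.22 scaled RPKM in the libraries labelled epl1∆ sds3∆, 6.81, 6.45 and 5.85 in those labelled esa1∆ sds3∆ and 7.31, 6.76 and 6.57 in those labelled esa1∆ epl1∆ sds3∆, against 4.36, 4.02 and 1.80 in WT. It still stood apart from WT in all 9 libraries, with log2 fold changes of 0.80, 0.80 and 0.90 (SE 0.204 each, limma adjusted p 0.00445, 0.00454 and 0.00213). Without WT replicate 3 they were 0.50, 0.51 and 0.60, and with a pseudocount of 5 they were 0.45, 0.45 and 0.51.

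The other enzymes lay between these. RCL1, the partner of Bms1, had log2 fold changes of 1.28, 1.22 and 1.29, and KRE33, the acetyltransferase that modifies the small subunit RNA, had 1.42, 1.34 and 1.29. EMG1, a methyltransferase of the same RNA, rose by 1.00, 1.05 and 0.88, and its promoter window held neither core. ROK1, a DEAD-box helicase, rose by 0.97, 0.70 and 0.87. The call of ROK1 in the libraries labelled esa1∆ sds3∆ ended with RPKM as deposited.

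The remaining 9 assembly factors were UTP7, UTP11, UTP14, UTP20, UTP23, UTP30, NOP14, ENP1 and KRR1. All 9 rose in the libraries labelled epl1∆ sds3∆ and esa1∆ epl1∆ sds3∆, and 8 did in those labelled esa1∆ sds3∆, with medians of 0.89, 0.84 and 0.92. UTP11 (YKL099C, chrXI:255720-256472, minus strand) had the largest fold changes. UTP11 had 27.0, 25.4 and 24.8 scaled RPKM in the libraries labelled epl1∆ sds3∆, 25.9, 22.8 and 23.3 in those labelled esa1∆ sds3∆ and 25.6, 21.3 and 25.7 in those labelled esa1∆ epl1∆ sds3∆, against 12.4, 9.43 and 4.41 in WT. The lowest library with a mutant label was above the highest WT library, with log2 fold changes of 1.55, 1.45 and 1.46 (SE 0.238 each, limma adjusted p 0.000117, 0.000195 and 0.000178). UTP23 (YOR004W, chrXV:333592-334356, plus strand), a PIN-domain protein that works with the snR30 small nucleolar RNA, had the smallest. UTP23 had 14.9, 13.6 and 9.72 scaled RPKM in the libraries labelled epl1∆ sds3∆, 10.7, 13.6 and 10.5 in those labelled esa1∆ sds3∆ and 12.6, 10.8 and 12.3 in those labelled esa1∆ epl1∆ sds3∆, against 11.2, 8.11 and 4.79 in WT. WT replicate 1 lay inside the range of the other groups, with log2 fold changes of 0.65, 0.54 and 0.58 (SE 0.224 each, limma adjusted p 0.0231, 0.0540 and 0.0404). The first and the last call ended in several settings, among them without WT replicate 3 (0.36, adjusted p 0.09996, and 0.29, adjusted p 0.184). In the libraries labelled esa1∆ sds3∆, where UTP23 was not called and was 0.25, adjusted p 0.254, without WT replicate 3, it was called with the replicate number as a block (adjusted p 0.0392). Over the alternatives the adjusted p of UTP23 lay between 0.00149 and 0.139, 0.00593 and 0.275, and 0.00426 and 0.184. UTP7, ENP1 and KRR1 had log2 fold changes between 1.10 and 1.31, and UTP14, UTP20, UTP30 and NOP14 between 0.59 and 0.92. With RPKM as deposited the call of NOP14 ended in the libraries labelled esa1∆ sds3∆, and that of UTP20 in those labelled esa1∆ epl1∆ sds3∆.

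**Figure D4:**
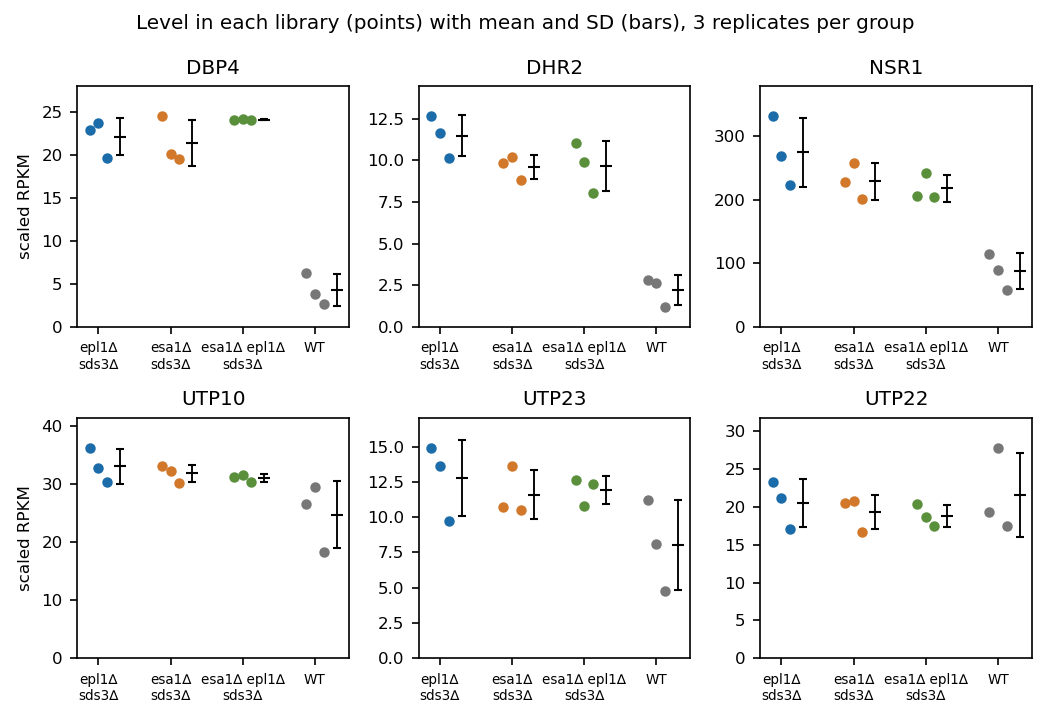
Scaled RPKM (y axis, from 0) of DBP4, DHR2, NSR1, UTP10, UTP23 and UTP22 in each of the 12 libraries (points), with the mean and SD of each group of 3 (bars). DBP4, DHR2 and NSR1 separate clearly from WT, UTP10 separates by a small gap, and UTP23 and UTP22 overlap with WT.

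The WT libraries differed among themselves in these genes more than the other groups did. The median over the genes of the coefficient of variation was 10.9%, 8.49% and 7.99% in the groups labelled epl1∆ sds3∆, esa1∆ sds3∆ and esa1∆ epl1∆ sds3∆, against 27.9% in WT. Over all features tested it was 10.4%, 8.73% and 8.30%, against 13.9% in WT. WT replicate 3 was the lowest of the 3 WT libraries for all 37 genes, beside 36.5% of features tested. WT replicate 1 was the highest for 28 genes, beside 30.7% of features tested. The highest WT library exceeded the lowest by a median ratio of 1.75 over the genes, from 1.43 to 2.82. Replicate 3 was also the lowest of its group for 32, 25 and 25 genes in the groups labelled epl1∆ sds3∆, esa1∆ sds3∆ and esa1∆ epl1∆ sds3∆. Of all features tested, 36.2%, 33.5% and 30.2% were lowest in replicate 3 of these groups. For 15 genes replicate 3 was the lowest in all 4 groups, as it was for 5.24% of features tested. The labels name no shared day or culture for a replicate number. Without WT replicate 3 the median fold changes of the 37 genes were 0.80, 0.75 and 0.84, and 34 genes rose in each comparison.

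Compared within the same replicate number, the genes were still higher in the libraries with mutant labels. In all 3 same-numbered pairs, 36, 35 and 36 genes were higher in the libraries labelled epl1∆ sds3∆, esa1∆ sds3∆ and esa1∆ epl1∆ sds3∆, against 36.4%, 37.2% and 37.6% of features tested. The median log2 difference of the genes was 0.83, 0.74 and 0.80 between the libraries numbered 1, 0.93, 0.86 and 0.94 between those numbered 2, and 1.37, 1.30 and 1.37 between those numbered 3, in the same order of groups.

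**Figure D5:**
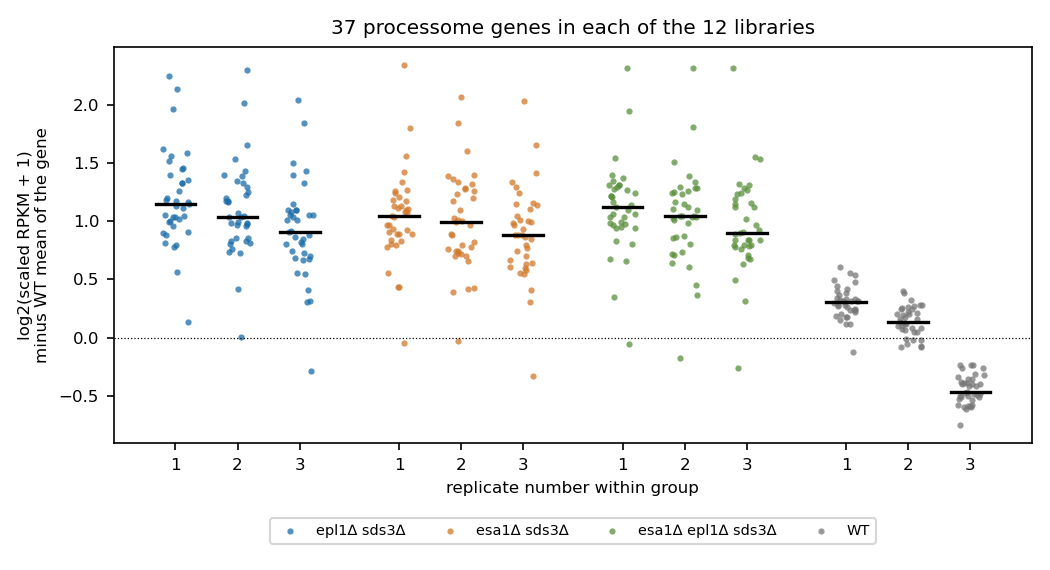
Log2(scaled RPKM + 1) of each of the 37 genes minus its WT mean (y axis) in every library (x axis, replicate number within group), with the median of the genes as a black line. The medians of the 9 libraries with mutant labels are all near 1, and WT replicate 3 lies below the other WT libraries.

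Between the groups with mutant labels the genes were not told apart. Of the 37 genes, 0 were called in limma in the libraries labelled esa1∆ sds3∆ against those labelled epl1∆ sds3∆, where 0.185% of features were called. Likewise 0 were called in those labelled esa1∆ epl1∆ sds3∆ against epl1∆ sds3∆ and against esa1∆ sds3∆, where 0.134% and 0.0504% of features were. In each of these comparisons 0 genes had an unadjusted p under 0.05, and limma-voom on recovered reads called 0. The median log2 differences were -0.09, -0.02 and 0.07. The largest difference of any gene was -0.32, for NSR1 in the libraries labelled esa1∆ epl1∆ sds3∆ against those labelled epl1∆ sds3∆. Its 95% interval was -0.77 to 0.13. In the libraries labelled esa1∆ sds3∆, 33 of the 37 genes had a log2 difference below 0 against those labelled epl1∆ sds3∆. The interval of every gene included 0. For all features tested the median difference was -0.0031, and the share below 0 was not counted. Replicate 1 of the group labelled epl1∆ sds3∆ was the highest of its 3 libraries for 26 of the 37 genes, beside 33.8% of features tested. The 3 comparisons with WT share the WT libraries, so their likeness is no independent evidence.

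Most other genes of the same pathway moved in the same direction. The shares over all features tested were 30.1%, 30.0% and 30.1% for a rise and 30.0%, 29.7% and 29.3% for a fall. Of 30 other early factors of the small subunit, 28, 24 and 28 rose and 0 fell, with median log2 fold changes of 0.95, 0.85 and 0.97. ENP2 had the largest, with 1.80, 1.82 and 1.85, and FCF1, which encodes a PIN-domain protein, had the smallest mean, with 0.05, 0.18 and 0.09. Of 11 late factors that mature the small subunit after the processome is taken apart, 9 rose in each comparison and 0, 0 and 1 fell, with medians of 0.76, 0.73 and 1.00. BUD23, a methyltransferase of the small subunit RNA, had 2.03, 2.07 and 2.003. TSR3, which also modifies that RNA, had -0.26, -0.33 and -0.42 and fell in the libraries labelled esa1∆ epl1∆ sds3∆ (adjusted p 0.0496). Of 47 large subunit assembly genes 45, 41 and 45 rose and 0 fell, with medians of 1.17, 1.09 and 1.18, and of 8 RNA polymerase I genes 8, 8 and 7 rose, with medians of 1.31, 1.20 and 1.21. Whether the processome genes differ from these lists was not tested.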

How the data were processed

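Per the labels' protocols, RNA came from biological triplicates by hot phenol extraction, DNase treatment followed, rRNA was depleted and the total RNA libraries kept strand. The deposited values are RPKM, 1 per feature and library, made by the authors. Tools named in the submitters' processing notes, without roles, are STAR, cutadapt and Bowtie 0.12.2, and the builds are sacCer3 and mm8. The counting program and its strand setting are not given in the sources used here, so values of overlapping or antisense features are uncertain. Features matched the R64 annotation by locus tag (6048) or RNA name (114), and 964 had no match and no position. RPKM multiplied by exon length gave whole reads within 0.01 for 99.7% of values under 5000 reads in each library.

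RPKM were divided by median-of-ratios factors, from 0.914 to 1.01 in the libraries with mutant labels and from 1.02 to 1.22 in WT. The 5956 features averaging 1 RPKM or more entered limma 3.58.1 (R 4.3.3), fitted to log2(scaled RPKM + 1) in all 12 libraries with a mean for each group and a mean-variance trend. The 4 groups share 1 estimate of the spread per gene, so the SE of a gene is the same in every comparison. P-values are two-sided. The steps were tested on simulated data. These genes had 45 to 4123 reads per library, so counting error is part of the spread between replicates, most of all for the low genes. Genes given in every library were the largest and smallest mean fold change of each role group, the highest and lowest WT level, and any gene not called in some comparison with WT. The genes, lists and motifs were chosen with earlier results of these data known. Same-numbered deviations from the group means correlated above 0.1 in all 3 pairs (0.124, 0.125 and 0.182) for esa1∆ sds3∆ and WT alone. For epl1∆ sds3∆ and WT the correlations were 0.289, -0.080 and 0.260. Pairing by number was read from these values and not from the labels. The main fit has no replicate block, which was run as an alternative. With the block, 36 of the 37 genes rose for esa1∆ sds3∆ against WT in place of 35.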

Additional observations from a re-analysis of the deposited data

How the results depend on the processing

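The counts of processome genes that rose ranged over the alternatives from 29 to 36 in each of the 3 comparisons with WT, the lowest being with a minimum of 10 RPKM, where 7 of the 37 genes were not tested. Leaving out 1 library gave 34 to 36 in each. In no alternative did any of the 37 genes fall, and none was called between mutant labels. The median fold changes ranged from 0.78 to 1.19 (epl1∆ sds3∆), 0.75 to 1.12 (esa1∆ sds3∆) and 0.78 to 1.14 (esa1∆ epl1∆ sds3∆), and from 0.80 to 1.19, 0.75 to 1.12 and 0.84 to 1.14 when 1 library was left out. With RPKM as deposited they were 0.78, 0.78 and 0.85, where the median of all features was -0.24, -0.24 and -0.18, and 34, 31 and 33 genes rose. Calls held under every alternative that tested the gene for 34, 31 and 33 genes. UTP22 ranged from -0.18 to 0.14 (epl1∆ sds3∆), from -0.26 to 0.058 (esa1∆ sds3∆) and from -0.29 to 0.027 (esa1∆ epl1∆ sds3∆) when 1 library was left out. Never called, it changed sign without WT replicate 2 (0.14, 0.058 and 0.027) and, against the label epl1∆ sds3∆, without replicate 3 of that group (0.07). The cause was not tested. With the replicate number as a block, 36, 36 and 35 genes rose, UTP23 being added for esa1∆ sds3∆, and no other call changed. With 3 libraries a group, half-widths of about 0.36 limit what can be seen between mutant labels. The fit shares 1 estimate of the spread per gene over all 4 groups, so these half-widths also carry the larger WT spread. The median coefficient of variation of the genes was 27.9% in WT and 7.99% to 10.9% in the other groups, so equal spread did not hold.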

Other observations

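Genes outside the processome set that carry both promoter cores also tended to be higher in the groups with mutant labels. Of 255 such genes tested, 178, 174 and 175 rose and 27, 29 and 29 fell in the libraries labelled epl1∆ sds3∆, esa1∆ sds3∆ and esa1∆ epl1∆ sds3∆, with median log2 fold changes of 0.77, 0.67 and 0.71. Of 552 with the PAC core alone, 234, 236 and 228 rose (42.4%, 42.8% and 41.3%) and 119, 113 and 109 fell. Of 436 with the RRPE core alone, 130, 129 and 125 rose and 120, 121 and 126 fell, about as many in each direction. Of 4235 with neither core, 1036, 1041 and 1068 rose and 1474, 1464 and 1436 fell. Of the genes with both cores, 40 were large subunit assembly genes, 20 other early factors of the small subunit, 8 late factors of the small subunit and 6 RNA polymerase I genes. The difference between these groups of promoters was not tested.

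Some genes of the pathway carried the cores and were not called up. TIF6, a large subunit assembly factor, held 2 PAC cores and 1 RRPE core and had log2 fold changes of -0.08, -0.12 and -0.31 (limma adjusted p 0.626, 0.476 and 0.0688). TSR3 held 1 PAC core and 2 RRPE cores. NOC3, another large subunit assembly factor, held 1 PAC core and no RRPE core. Its log2 fold changes were 0.30, 0.11 and 0.29 (limma adjusted p 0.0712, 0.501 and 0.0775). BUD23, with 1 PAC core and no RRPE core, had by contrast the largest fold changes of the late factors. It averaged 9.63 ± 0.718, 9.94 ± 1.34 and 9.51 ± 2.01 scaled RPKM in the groups labelled epl1∆ sds3∆, esa1∆ sds3∆ and esa1∆ epl1∆ sds3∆, against 1.63 ± 0.507 in WT (SD, n = 3 each).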
